A study of Homo sapiens with 16 samples.

Results

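Keratins are the intermediate filament proteins of epithelial cells, and 8 of their genes are described here: KRT8, KRT10, KRT16, KRT18, KRT19, KRT20, KRT23 and KRT80. They were taken by name from a table of read counts for 58735 human genes, and the list was selected on these same counts over all 6 groups, so their levels and changes are given as a description and carry no test. All 8 passed the filter on low counts, and so did 14 of the other keratin genes searched by symbol (54 keratin genes in all). KRT16 passed on its 5-FU libraries, since it had at most 4 counts in any untreated library, and no count or median over the genes that passed is used as support for a change.

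The cells were SW620, a human colorectal cancer line. One line of them held a short hairpin RNA of scrambled sequence as the control (the scramble line), and the other held a hairpin aimed at ATF4, a transcription factor of the stress response (the shATF4 line). Each line was sequenced untreated (3 libraries), after 24 h in 5 µM 5-fluorouracil (5-FU; 3 libraries) and after 48 h in 5 µM 5-FU (2 libraries), so that 16 libraries fell into 6 groups. 5-FU is a pyrimidine drug of colorectal chemotherapy that inhibits thymidylate synthase and is misincorporated into nucleic acids. The study asked what ATF4 does in the resistance of these cells to chemotherapy.

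One control line was set against one hairpin line, so an effect of ATF4, an off-target effect of the hairpin and a difference between the lines themselves cannot be told apart. No time in culture was given for the untreated cells, so drug and time in culture cannot be told apart either. The 48 h groups follow the titles, since the treatment tag of those 4 libraries reads 24 h. Whether replicates came from different cultures is not labelled, so every p-value reflects the scatter of these libraries alone, and that scatter may be technical. In bulk RNA, a change in the number of cells that express a gene and a change in RNA per cell cannot be told apart.

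Libraries held 14571611 to 17824188 counts, and the 8 keratins took 0.668 to 1.025% of them. ATF4 itself lay at 364 to 388 CPM in the untreated scramble libraries and at 169 to 179 CPM in the untreated shATF4 libraries, and its groups did not overlap at 24 h (270 to 285 against 91.1 to 130) or 48 h (331 to 333 against 114 to 118). Levels in CPM are counts divided by library sizes that were scaled with TMM factors. Of 10 markers of colon epithelium, 8 averaged at least 1 CPM over the 16 libraries, with a summed level of 1114 to 1407 CPM per library. Some were low: the lowest library held 0.201 CPM of GPA33, 0.067 CPM of LGALS4 and 0.469 CPM of FABP1. Of 10 keratinocyte markers only KRT5 and FLG averaged at least 1 CPM over the 16 libraries. The keratinocyte sum was 2.68 to 11.5 CPM per library, and KRT1 and LOR had no counts. Of the untreated scramble libraries, replicate 2 carried 1.422% of its counts in mitochondrial protein genes, against 0.753 and 0.766% in the other two. That library and shATF4 24 h replicate 3 were described earlier as standing apart from their groups, and the fold changes and calls of the 8 keratins were also computed without both.

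Keratins work in pairs. A type I protein joins a type II protein in a heterodimer, and the dimers assemble into filaments that are anchored at desmosomes and give epithelial cells mechanical strength. KRT8 (type II) and KRT18 (type I) form the primary pair of simple, single-layered epithelia, and KRT19 and KRT20 are further type I keratins of the gut, KRT20 mostly in mature cells near the luminal surface. KRT16 belongs with KRT6A, KRT6B and KRT17 to the keratins that skin switches on after wounding and in hyperproliferation, and KRT10 marks cells of the upper epidermis.

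In the annotation of the deposited table (GRCh38), 5 of the 8 genes lie on the minus strand of chromosome 17: KRT10 (chr17:40818117-40822595), KRT20 (chr17:40875941-40885227), KRT23 (chr17:40922696-40937634), KRT19 (chr17:41523617-41528308) and KRT16 (chr17:41609778-41615899). They are all of type I. On chromosome 12 lie the type II genes KRT80 (chr12:52168996-52192000, minus strand) and KRT8 (chr12:52897187-52949954, minus strand), and the type I gene KRT18 (chr12:52948871-52952901, plus strand). KRT8 and KRT18 overlap by 1084 bp and share 525 bp of exon on opposite strands. How the counting treated strand is unknown here, so part of the reads of this pair is of uncertain origin. The same holds for KRT10, which overlaps TMEM99 by 3490 bp, for KRT80 with LINC00592 and for KRT23 with AC004231.1.

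KRT20 and KRT10 are shown with the 250 bases before their start sites because their levels behaved differently: at 48 h in scramble cells KRT20 moved most of the 8 genes after KRT16, and KRT10 moved least. Promoter entries matched for 3 of the 8 genes, and that of KRT8, at a far upstream start, is not shown. Both stretches come from RefSeq (GRCh38.p14) and read along the minus strand, chr17:40885243-40885492 for KRT20 and chr17:40822615-40822864 for KRT10. Capitals mark matches, on either strand, to 3 of the motifs searched: TTTAT, read as ATAAA where it lies on the other strand, the core of sites for the intestinal factors CDX1 and CDX2; CACCC, a box bound by KLF factors; and TATAAA, the TATA box, which can overlap ATAAA.
KRT20: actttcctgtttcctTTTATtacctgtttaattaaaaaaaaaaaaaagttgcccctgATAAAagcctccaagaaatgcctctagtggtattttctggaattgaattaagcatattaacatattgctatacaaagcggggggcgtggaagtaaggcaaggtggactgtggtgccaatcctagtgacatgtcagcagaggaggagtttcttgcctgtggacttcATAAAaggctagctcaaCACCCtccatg
KRT10: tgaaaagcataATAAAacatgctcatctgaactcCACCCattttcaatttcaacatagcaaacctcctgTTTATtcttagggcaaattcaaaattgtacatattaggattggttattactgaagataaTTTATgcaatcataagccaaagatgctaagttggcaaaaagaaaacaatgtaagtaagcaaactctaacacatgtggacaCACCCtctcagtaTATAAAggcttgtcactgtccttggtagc

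Both stretches hold the CDX core at position -28, counted back from the start site. KRT20 has further copies at -235 and -193, and KRT10 has further copies at -239, -181 and -122. In KRT10 the copy at -28 is part of a full TATA box. In KRT20 the copy at -28 follows the base C. TATAAA was the only form of the TATA box searched, and the KRT20 stretch has no exact match to it. The CACCC word lies at -11 in KRT20 and at -216 and -42 in KRT10. Such short words are common: of 35116 promoters of the same length, 32.7% hold TTTAT, 54.7% CACCC and 10.7% TATAAA. Whether any of these words bears on the levels of KRT20 or KRT10 was not tested. Neither stretch holds the AP-1 word TGANTCA (6.57% of promoters), the C/EBP-ATF word TGATGNAA (3.14%), the cyclic AMP response word TGACGTCA (1.65%) or GGGCGG, the GC box (42.6%).

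To rank the genes by level, the authors' deposited FPKM values were used, which correct for gene length and depth. In the untreated scramble cells KRT8 stood at 960 ± 109 FPKM (SD, n = 3). KRT18 stood at 721 ± 6.73 and KRT19 at 575 ± 17 FPKM, and the 3 genes did not overlap. Far below came KRT80 at 32.9 ± 2.11, KRT10 at 17.4 ± 0.416 and KRT23 at 5.66 ± 0.378 FPKM. KRT20 (0.783 ± 0.0613) and KRT16 (0.0337 ± 0.0584) were the lowest. The order was the same in untreated shATF4 cells. After 5-FU the spacing narrowed from both ends: in scramble cells at 48 h KRT8 stood at 562 ± 16.3 FPKM, KRT23 at 22.3 ± 0.363, above KRT10 at 20.2 ± 0.926, and KRT20 at 5.93 ± 0.51 (n = 2). The order of KRT23 above KRT10 rests on 2 libraries and has no test.

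In what follows, "rose" and "fell" mark genes whose adjusted p was under 0.05 in edgeR's quasi-likelihood test over 17309 genes, and "did not pass" marks the others. For the 8 listed keratins this is a label only.

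With 5-FU for 24 h in scramble cells, KRT16, KRT20, KRT23 and KRT80 rose, and KRT8 and KRT18 fell. That is 6 of 8, where 44.0% of all tested genes were called in this comparison, 21.8% higher and 22.2% lower. At 48 h the same 4 rose and KRT19 joined KRT8 and KRT18 among those that fell, 7 of 8 against 60.7% of all genes (30.6% higher, 30.0% lower). In shATF4 cells the same 4 rose at 24 h and KRT18 fell (5 of 8, against 44.4% of all genes, 23.2% higher and 21.2% lower). At 48 h KRT16 and KRT23 were the ones called higher, while KRT8, KRT18 and KRT19 fell (5 of 8, against 58.3% of all genes, 29.6% higher and 28.7% lower). KRT10 passed in none of these 4 comparisons. The median log2 change over the 8 was 0.21 at 24 h and 0.72 at 48 h in scramble cells, and 0.31 and 0.18 in shATF4 cells, where all tested genes had medians of -0.011, 0.027, 0.029 and 0.031. Comparisons within a line share its untreated libraries.

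**Figure D1:**
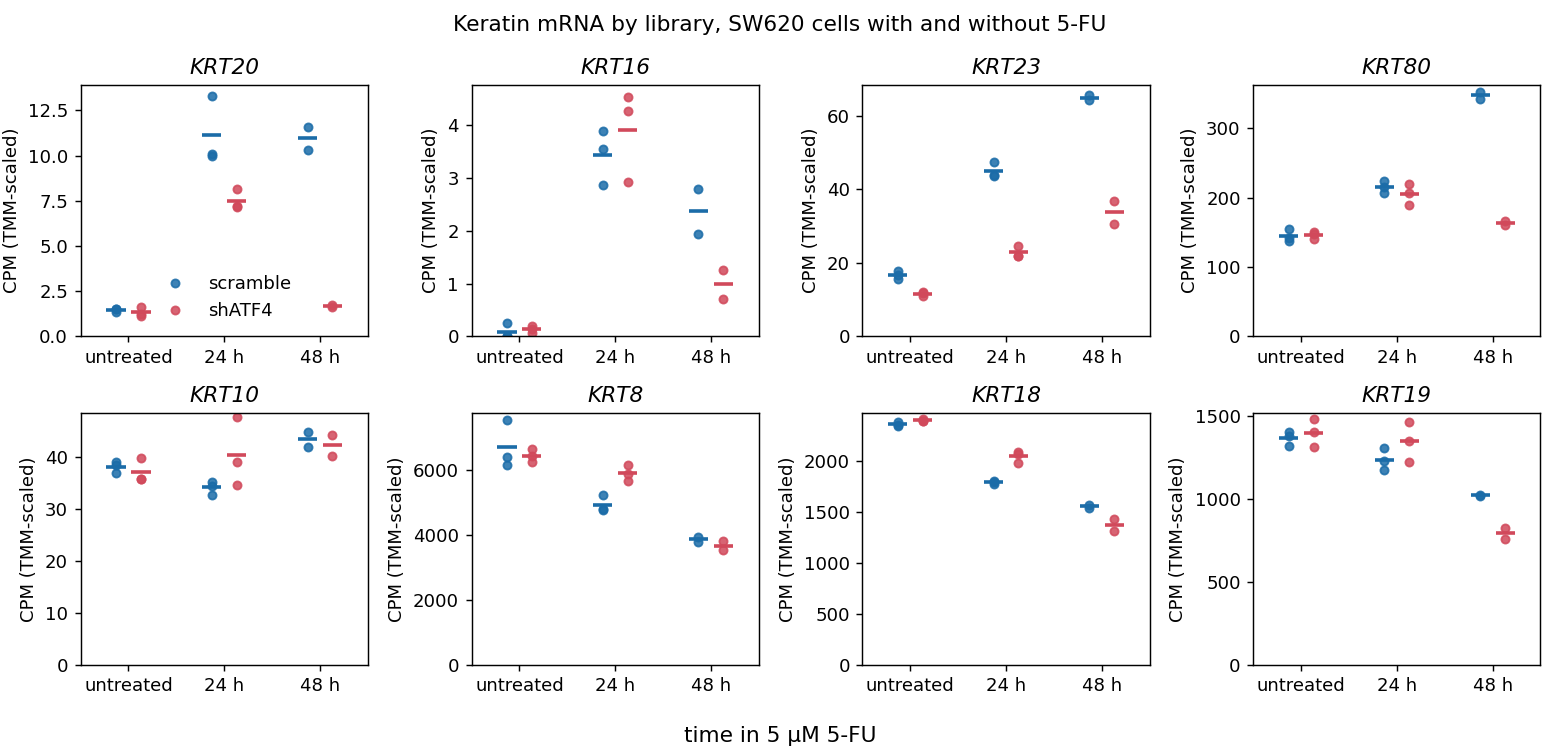
Levels of the 8 keratins in each library, in CPM on a linear axis from 0, for untreated cells and for 24 h and 48 h in 5-FU; points are libraries, bars are group means, blue is scramble and red is shATF4. KRT20 and KRT80 at 48 h separate the lines, with KRT20 at 10.3 and 11.6 CPM in scramble and 1.65 and 1.75 CPM in shATF4.

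KRT20, the keratin of mature intestinal cells, was low without drug. Its 3 untreated scramble libraries gave 1.54, 1.33 and 1.54 CPM, and the 3 untreated shATF4 libraries gave 1.23, 1.11 and 1.65 CPM. These groups overlapped. After 24 h it reached 10.1, 13.3 and 10.0 CPM in scramble cells and 7.17, 7.19 and 8.15 CPM in shATF4 cells. Both groups lay wholly above their untreated libraries, and the shATF4 group lay wholly below the scramble group. At 48 h the scramble libraries stayed at 11.6 and 10.3 CPM. The shATF4 libraries were back at 1.65 and 1.75 CPM, close to the highest untreated library of that line.

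On the log2 scale KRT20 rose by 2.92 ± 0.18 (SE) at 24 h and 2.89 ± 0.20 at 48 h in scramble cells, or 7.55-fold and 7.43-fold. In shATF4 cells it rose by 2.5 ± 0.19 at 24 h, and the change at 48 h was 0.36 ± 0.26. Between 24 and 48 h it changed by -0.02 ± 0.16 in scramble cells, whereas it fell by 2.14 ± 0.20 in shATF4 cells. The direct difference between the lines, shATF4 minus scramble, was -0.15 ± 0.25 untreated, -0.56 ± 0.14 at 24 h and -2.68 ± 0.21 at 48 h. The call at 24 h rested on 1 library: without scramble 24 h replicate 2, the highest of its group, the difference was -0.43 ± 0.15 and no longer called. The number of KRT20 reads was small, 16 to 212 counts per library.

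KRT16, one of the wound keratins, was at or near 0 in untreated cells. The untreated scramble libraries held 0, 4 and 0 counts, and the untreated shATF4 libraries held 3, 1 and 2. A count of 0 in these 2 scramble libraries allows up to 0.22 and 0.201 CPM. After 24 h the counts were 50, 62 and 60 in scramble cells and 47, 62 and 78 in shATF4 cells, which is 2.87 to 3.9 CPM and 2.93 to 4.54 CPM. The lines overlapped at this time. At 48 h there were 48 and 33 counts in scramble cells (2.8 and 1.94 CPM) and 23 and 13 in shATF4 cells (1.26 and 0.71 CPM), without overlap.

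Because the untreated counts were so few, folds of KRT16 were also taken from summed counts, with a 95% exact binomial interval that covers counting error only. The ratio to untreated in scramble cells was 38.0 (14.6 to 141) at 24 h and 26.3 (9.89 to 98.9) at 48 h. Its 4 untreated counts all came from replicate 2. Without that library, set against a floor of 3 counts over the group, the ratios were 32.7 and 22.6. These leave out the only untreated scramble library with KRT16 counts. They are therefore not lower limits for all libraries, whose intervals start at 14.6 and 9.89. In shATF4 cells the ratio was 28.2 (12.7 to 77.7) at 24 h and 7.08 (2.95 to 20.5) at 48 h. The fitted log2 changes were 5.14 ± 0.53 and 4.60 ± 0.59 in scramble cells and 4.74 ± 0.48 and 2.76 ± 0.63 in shATF4 cells.

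From 24 to 48 h KRT16 fell by 1.98 ± 0.37 in shATF4 cells, and the change in scramble cells was -0.53 ± 0.33. Between the lines at 48 h the difference was -1.26 ± 0.42 and did not pass, though it passed with DESeq2 (-1.28 ± 0.43). KRT16 shares 4.69% of its 100-base words with other genes, mostly KRT14, and its 6 pseudogenes held at most 5.88% of the reads given to gene and pseudogenes together. With the pseudogene counts added, that difference was -1.35 ± 0.41 and passed.

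KRT23, a type I keratin known to be induced by histone deacetylase inhibitors in cancer cells, differed between the lines in every state. Untreated scramble libraries gave 15.7, 17.8 and 16.7 CPM, and untreated shATF4 libraries gave 10.9, 11.7 and 12 CPM. The 24 h libraries gave 43.5, 47.5 and 43.9 CPM in scramble and 21.9, 21.9 and 24.7 CPM in shATF4. The 48 h libraries gave 64.2 and 65.6 CPM in scramble and 30.6 and 36.9 CPM in shATF4. No shATF4 library reached the scramble libraries of its own state, and within each line each later state lay wholly above the earlier one.

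The log2 rise of KRT23 was 1.43 ± 0.09 at 24 h and 1.96 ± 0.10 at 48 h in scramble cells, and 0.99 ± 0.10 and 1.55 ± 0.10 in shATF4 cells. From 24 to 48 h it rose by 0.53 ± 0.09 and 0.56 ± 0.10. The difference between the lines was -0.54 ± 0.10 untreated, -0.97 ± 0.09 at 24 h and -0.94 ± 0.10 at 48 h. KRT23 was thus the 1 listed keratin called between untreated lines, where 2.92% of all genes were called (1.08% higher, 1.84% lower in shATF4).

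KRT80, a type II keratin found in many epithelia, was already well expressed without drug, at 142, 155 and 138 CPM in scramble and 140, 151 and 148 CPM in shATF4. At 24 h the lines still overlapped, at 207, 224 and 215 CPM in scramble and 220, 207 and 190 CPM in shATF4. At 48 h they parted: 352 and 343 CPM in scramble against 161 and 167 CPM in shATF4. In scramble cells KRT80 rose by 0.57 ± 0.07 and then 1.26 ± 0.07. With the ATF4 hairpin it rose by 0.49 ± 0.07 at 24 h and then fell by 0.32 ± 0.08 to 48 h, where its distance from untreated was 0.17 ± 0.08. That last value did not pass, but it did with 2 other scalings of the libraries (0.19 and 0.29) and with DESeq2 (0.19). The difference between the lines was 0.01 ± 0.07 untreated, -0.06 ± 0.07 at 24 h and -1.08 ± 0.08 at 48 h.

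KRT8, KRT18 and KRT19, the filament keratins of simple epithelium, made up nearly all keratin reads and went the other way. KRT8 lay at 6417, 7552 and 6160 CPM in untreated scramble libraries, at 4770, 5216 and 4798 CPM at 24 h, and at 3788 and 3942 CPM at 48 h. The shATF4 libraries had 6236, 6422 and 6640 CPM, then 5649, 6152 and 5891 CPM, then 3520 and 3802 CPM. All 3 states were apart in both lines. Untreated and 48 h libraries of the lines overlapped, and the 24 h libraries did not.

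KRT8 fell by 0.45 ± 0.07 at 24 h and 0.80 ± 0.08 at 48 h in scramble cells, and by 0.81 ± 0.08 at 48 h in shATF4 cells. The change in shATF4 cells at 24 h was -0.13 ± 0.07 and did not pass, though it passed without both libraries that stood apart (-0.12 ± 0.05). At 24 h KRT8 was higher in shATF4 than in scramble cells by 0.26 ± 0.07, a call that was lost without scramble 24 h replicate 1 (0.22 ± 0.08) or replicate 3 (0.23 ± 0.08). Its 50 pseudogenes held at most 0.488% of the reads of gene and pseudogenes together.

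KRT18, the partner of KRT8, lay at 2343, 2352 and 2376 CPM, 1804, 1774 and 1794 CPM, and 1531 and 1570 CPM in scramble cells from untreated to 48 h. The shATF4 values were 2393, 2410 and 2388 CPM, 1981, 2087 and 2063 CPM, and 1307 and 1426 CPM. Within each line the 3 states did not overlap. KRT18 fell by 0.40 ± 0.05 and 0.60 ± 0.06 in scramble cells and by 0.23 ± 0.05 and 0.81 ± 0.06 in shATF4 cells. The lines differed by 0.19 ± 0.05 at 24 h, with shATF4 higher, and this call was lost without any 1 of the scramble 24 h libraries (0.17 to 0.18). At 48 h the difference was -0.18 ± 0.06 and did not pass. It passed with DESeq2 (-0.19 ± 0.06), without shATF4 24 h replicate 1 or 3, and without both libraries that stood apart (-0.18 ± 0.05).

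KRT8 and KRT18 assemble in equal numbers, and their ratio per length was followed while both fell. The lengths used, unions of all exons, were 6881 bp for KRT8 and 3218 bp for KRT18. The level of the ratio depends on them. Without length, the ratio of counts in untreated scramble cells was 2.85 ± 0.323. Whether the mRNAs of the pair were equal in number therefore cannot be read from these values. The FPKM ratio of KRT8 to KRT18 was 1.33 ± 0.151 in untreated scramble cells, 1.29 ± 0.0781 at 24 h and 1.17 ± 0.00707 at 48 h. In shATF4 cells it was 1.26 ± 0.0404, 1.35 ± 0.0265 and 1.25 ± 0.00707. The highest single value, 1.5, came from scramble untreated replicate 2, the library with the larger mitochondrial share. The groups of untreated and 48 h scramble libraries did not overlap, at 1.21 to 1.5 against 1.16 and 1.17. With 3 against 2 libraries an exact permutation test cannot reach p = 0.05, and none is given.

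KRT19, a small type I keratin without a tail domain, changed less than KRT8 and KRT18 at 24 h in both lines. It also changed less at 48 h in scramble cells. At 48 h in shATF4 cells it fell about as far as KRT8 (0.81 ± 0.08) and KRT18 (0.81 ± 0.06). Scramble libraries gave 1399, 1379 and 1319 CPM untreated, 1171, 1302 and 1226 CPM at 24 h, and 1018 and 1023 CPM at 48 h. The shATF4 libraries gave 1308, 1401 and 1478 CPM, then 1349, 1463 and 1223 CPM, then 756 and 824 CPM. Only at 48 h did the lines part. The change at 24 h was -0.15 ± 0.07 in scramble and -0.05 ± 0.07 in shATF4 cells, and neither passed. In scramble cells it passed without shATF4 24 h replicate 3 (-0.15 ± 0.05) and without both libraries that stood apart (-0.14 ± 0.05). At 48 h KRT19 fell by 0.42 ± 0.08 in scramble and by 0.82 ± 0.08 in shATF4 cells. The difference between the lines at 48 h, -0.37 ± 0.08, was no longer called without scramble replicate 1 (-0.37 ± 0.11), scramble replicate 2 (-0.36 ± 0.11) or shATF4 replicate 1 (-0.30 ± 0.10) of that time.

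KRT10 was the steady gene of the list. It lay at 38.3, 36.9 and 38.9 CPM, 35.1, 34.4 and 32.7 CPM, and 41.9 and 44.7 CPM in scramble cells. In shATF4 cells it lay at 35.7, 35.6 and 39.8 CPM, 34.6, 39.0 and 47.6 CPM, and 44.2 and 40.1 CPM. Its widest group was shATF4 at 24 h. The changes with 5-FU ran from -0.16 ± 0.10 to 0.19 ± 0.11. KRT10 rose from 24 to 48 h in scramble cells by 0.35 ± 0.11, and this call was lost without scramble 24 h replicate 3 (0.31 ± 0.12) or 48 h replicate 2 (0.28 ± 0.14). With upper-quartile scaling both changes at 48 h against untreated passed, at 0.33 and 0.31, and that scaling also moved the median of all genes at 48 h to 0.172 in scramble and 0.157 in shATF4 cells.

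**Figure D2:**
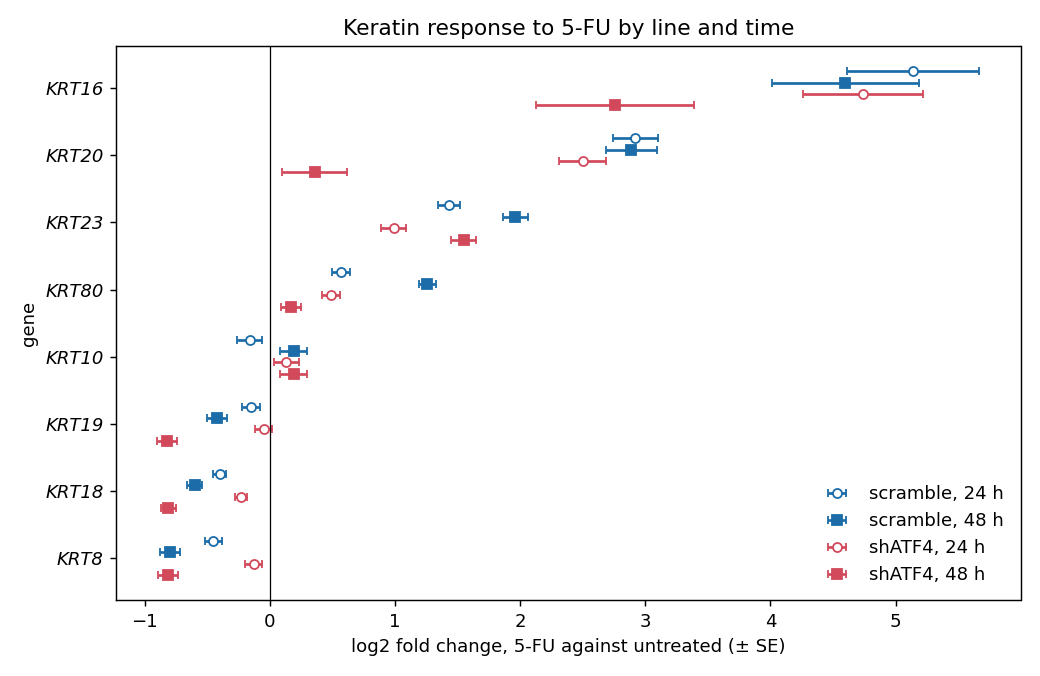
Log2 fold change of each listed keratin after 5-FU against the untreated libraries of its line; open circles are 24 h, filled squares 48 h, blue scramble, red shATF4, and bars are 1 SE from the edgeR fit. The red 48 h squares of KRT20 (0.36) and KRT80 (0.17) lie near 0 while the blue ones lie at 2.89 and 1.26, and KRT8 and KRT18 lie left of 0 throughout.

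From 24 to 48 h, 3 listed keratins rose and 3 fell in scramble cells (KRT10, KRT23 and KRT80 up; KRT8, KRT18 and KRT19 down), with 38.3% of all genes called (18.8% higher, 19.5% lower). In shATF4 cells KRT23 rose and the other 6 of the 7 called fell (KRT8, KRT16, KRT18, KRT19, KRT20 and KRT80), with 48.2% of all genes called (23.7% higher, 24.5% lower). KRT20, KRT16 and KRT80 therefore came down in the shATF4 line over the second day after having risen on the first. The fall of KRT18 in scramble cells over this time, -0.21 ± 0.06, was not called with upper-quartile scaling (-0.14).

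Set directly against each other, the lines differed in 4 listed keratins at 24 h (KRT8 and KRT18 higher, KRT20 and KRT23 lower in shATF4), where 20.4% of all genes were called (10.5% higher, 9.89% lower). At 48 h they differed in 4, all lower in shATF4 (KRT19, KRT20, KRT23 and KRT80), where 9.45% of all genes were called (3.92% higher, 5.53% lower). The count of 4 at 24 h dropped to 2 without any 1 of the scramble 24 h libraries. The count of 4 at 48 h moved both ways when 1 library was left out.

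The interaction contrast asks whether the log2 response to 5-FU itself differed between the lines. At 24 h it called 0 of the 8 with edgeR and 3 had an unadjusted p under 0.05, with 2.13% of all genes called (0.947% higher, 1.18% lower). Those 3 were KRT8 (0.32 ± 0.09), KRT18 (0.17 ± 0.07) and KRT23 (-0.44 ± 0.14). KRT20 stood at -0.42 ± 0.29. At 48 h it called KRT19 (-0.40 ± 0.11), KRT20 (-2.54 ± 0.33) and KRT80 (-1.09 ± 0.11), all with the smaller rise or larger fall in shATF4 cells, with 2.74% of all genes called (1.30% higher, 1.44% lower). The call of KRT19 was lost when any 1 of 12 of the 16 libraries was left out, with values from -0.46 to -0.34 in those fits. KRT16 stood at -1.85 ± 1.11 and KRT23 at -0.41 ± 0.15, and neither passed.

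The wider keratin family was taken by symbol, 54 genes in all, of which 22 could be tested, 32 were under the filter and 9 of those had no count in any library. Among all 22, 15 rose and 3 fell in scramble cells at 24 h (21.8% and 22.2% of all genes) and 15 rose and 4 fell at 48 h (30.6% and 30.0%). In shATF4 cells 15 rose and 2 fell at 24 h (23.2% and 21.2% of all genes), and 11 rose and 6 fell at 48 h (29.6% and 28.7%). Split by type at 48 h in scramble cells, 10 of the 11 tested type II genes rose and KRT8 fell, while 5 of the 11 type I genes rose and 3 fell. The median log2 change of the 22 was 1.33 and 1.84 in scramble cells and 1.09 and 0.70 in shATF4 cells. With KRT74 and KRT75 set at their lower bounds, the first of these was 1.24 and the others were as given. KRT6A, KRT6B, KRT13, KRT16, KRT74 and KRT75 passed the filter only through their 5-FU libraries, which favours a rise. Even so, KRT74 at 24 h and KRT13 at 48 h were not called in either line. These counts therefore describe the genes that could be measured and not the family.

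KRT6A and KRT6B are the type II keratins that pair with KRT16 and KRT17 in wounded skin. KRT6A lay at 0.314 ± 0.0591 CPM in untreated scramble cells, at 5.56 ± 0.725 CPM at 24 h (n = 3 each) and at 17.7 ± 0.0688 CPM at 48 h (n = 2). Its log2 difference from untreated at 48 h was 5.77 ± 0.28 in scramble and 3.94 ± 0.31 in shATF4 cells. KRT6A and KRT6B passed the filter on low counts through their 5-FU libraries, so no p is given for them against untreated. The lines at 48 h differed in KRT6A by -1.70 ± 0.21 (edgeR quasi-likelihood test, Benjamini-Hochberg adjusted p = 1.69e-05), and the interaction of -1.84 ± 0.57 did not pass (adjusted p = 0.0948).

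KRT6B went from 0.219 ± 0.129 to 3.95 ± 0.227 and 12 ± 0.575 CPM in scramble cells and from 0.209 ± 0.182 to 2.59 ± 0.128 and 7.72 ± 0.13 CPM in shATF4 cells. It kept rising to 48 h in both lines, by 1.60 ± 0.19 and 1.57 ± 0.21 over the 24 h values. KRT6A and KRT6B share 13.6% and 24.6% of their 100-base words with other genes, mostly KRT6C, so their split is uncertain. KRT17 went from 1.63 ± 0.257 to 17.2 ± 1.35 and 25.9 ± 3.21 CPM in scramble cells and from 1.5 ± 0.314 to 20.5 ± 2.19 and 16.8 ± 0.488 CPM in shATF4 cells. It rose by 3.97 ± 0.17 and 3.47 ± 0.17 at 48 h (edgeR adjusted p = 5e-14 and 1.23e-12). From 24 to 48 h in shATF4 cells, where KRT16 fell, KRT17 changed by -0.29 ± 0.13 (edgeR adjusted p = 0.0717) and KRT6A by 0.37 ± 0.21 (adjusted p = 0.151), and neither passed.

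KRT7, a type II keratin of ductal epithelia, rose at 24 h in both lines (1.24 ± 0.12 and 1.27 ± 0.12), and the lines then parted. It went from 30.7 ± 5.11 CPM to 72.7 ± 3.10 and 53.1 ± 1.70 CPM in scramble cells, and from 30.0 ± 2.84 to 72.1 ± 11.9 and 22.0 ± 0.691 CPM in shATF4 cells. In shATF4 cells it ended below untreated (-0.45 ± 0.14, edgeR adjusted p = 0.00815), and in scramble cells above it (0.79 ± 0.13, adjusted p = 1.99e-05). KRT5, the type II keratin of basal cells, went from 1.30 ± 0.59 to 5.24 ± 0.145 CPM at 48 h in scramble cells and stood at 1.58 ± 0.0105 and 2.03 ± 0.226 CPM in shATF4 cells.

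The hair keratins KRT81 and KRT86 share 29.7% and 24.6% of their 100-base words, mainly with each other, and their split is uncertain. KRT81 lay at 8.72 ± 0.749, 47.2 ± 2.04 and 128 ± 3.48 CPM in scramble cells and at 8.66 ± 1.79, 38.3 ± 2.17 and 27.4 ± 3.67 CPM in shATF4 cells. KRT86 lay at 10.8 ± 0.722, 30.0 ± 1.26 and 35.6 ± 2.04 CPM, and at 9.25 ± 0.616, 21.1 ± 3.12 and 11.8 ± 1.43 CPM. From 24 to 48 h in scramble cells KRT81 rose by 1.44 ± 0.10 (edgeR adjusted p = 2.01e-09), and the change of KRT86 was 0.25 ± 0.11 (adjusted p = 0.0891). KRT40, another hair keratin, fell in scramble cells from 54.9 ± 2.88 to 30.6 ± 2.86 CPM at 48 h and in shATF4 cells from 50.4 ± 3.50 to 17 ± 1.06 CPM. Of the hair keratins called in scramble cells at 48 h it was the 1 that fell.

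The remaining tested keratins were low. KRT15 rose by 1.39 ± 0.18 and 1.04 ± 0.18 at 48 h, KRT83 by 2.08 ± 0.35 and 1.43 ± 0.44, and the values of KRT13 at 24 h were 2.36 ± 0.59 and 4.33 ± 0.67. KRT39 fell in shATF4 cells (-0.93 ± 0.22 at 48 h) and stood at -0.17 ± 0.22 in scramble cells. KRT75 had no counts in untreated scramble cells and 40 at 48 h, at least 17.3-fold higher against a floor of 3 counts over the group. KRT74 had 0 and 30 counts, at least 13-fold higher.

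**Figure D3:**
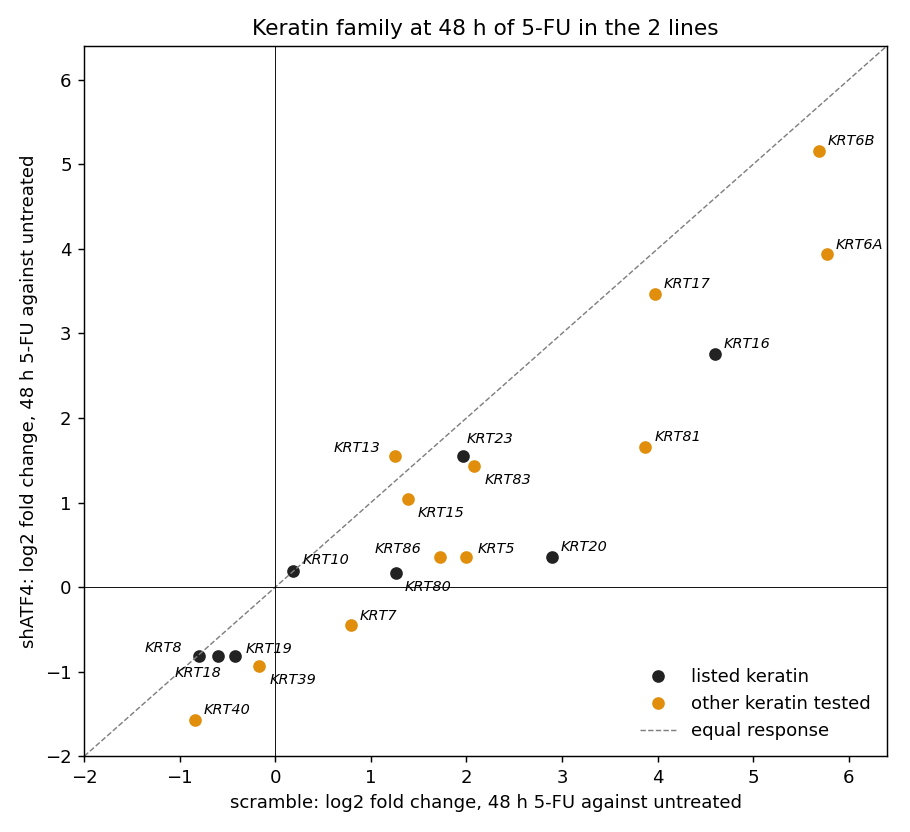
Log2 fold change at 48 h of 5-FU against untreated in scramble cells (x axis) and in shATF4 cells (y axis) for 20 of the 22 keratins tested; black points are the listed keratins, orange points the others, the dashed line marks equal response, and KRT74 and KRT75, without counts in untreated scramble cells, are left out. KRT81 (3.87 against 1.66), KRT20 (2.89 against 0.36) and KRT5 (2.0 against 0.36) lie far below the line, and KRT8 and KRT10 lie on it.

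Between the lines at 48 h, 12 of the 22 keratins were called and all were lower in shATF4, beside 5.53% of all genes called lower. That count rests on 2 libraries per line and moved both ways when 1 library was left out. The interaction at 48 h called 8 of the 22, all negative, beside 2.74% of all genes called and 1.44% called negative: the listed KRT19, KRT20 and KRT80 and, of the others, KRT81 (-2.21 ± 0.18, edgeR adjusted p = 5.82e-07), KRT86 (-1.36 ± 0.18, adjusted p = 0.000324), KRT7 (-1.24 ± 0.19, adjusted p = 0.00088), KRT40 (-0.72 ± 0.15, adjusted p = 0.0091) and KRT5 (-1.64 ± 0.42, adjusted p = 0.0379). In edgeR fits without scramble 48 h replicate 1 or without shATF4 48 h replicate 2 the count was 5. At 24 h the interaction called 0 of the 22 with edgeR, and 5 had an unadjusted p under 0.05. Between the lines at 24 h, 2 of the 22 were higher and 5 lower in shATF4 cells (10.5% and 9.89% of all genes), and this count of 7 dropped to 3 without any 1 of the scramble 24 h libraries.

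KRT8, KRT18 and KRT19 together gave 10433 ± 753 CPM in untreated scramble cells, 7951 ± 296 CPM at 24 h and 6437 ± 140 CPM at 48 h. In shATF4 cells they gave 10226 ± 284, 9286 ± 373 and 5818 ± 332 CPM. The other 19 tested keratins summed to 322 ± 10.8, 542 ± 21.3 and 800 ± 4.38 CPM in scramble cells and to 311 ± 9.39, 502 ± 12.8 and 371 ± 7.50 CPM in shATF4 cells. These 19 include KRT7 and KRT20, which simple epithelia also make. KRT80 (145 to 348 CPM at 48 h in scramble cells) and KRT81 (8.72 to 128 CPM) make up much of the difference, and KRT40 fell (54.9 to 30.6 CPM). The 19 genes' share of all keratin CPM was 3.0, 6.38 and 11.1% in scramble cells and 2.95, 5.13 and 6.0% in shATF4 cells. Libraries of different states did not overlap in this share in either line.

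**Figure D4:**
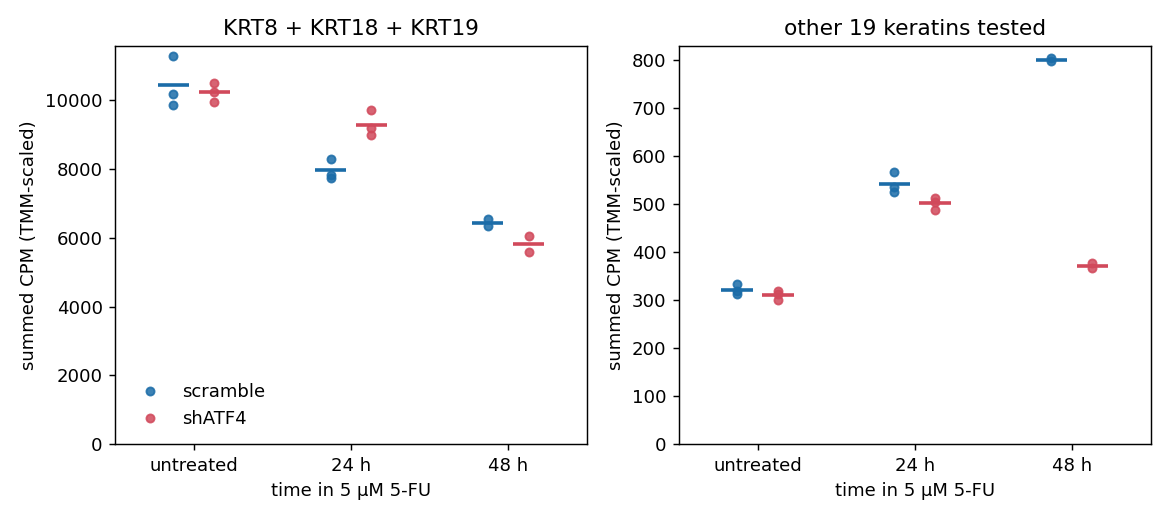
Summed CPM of KRT8, KRT18 and KRT19 (left) and of the other 19 tested keratins (right) in each library, both axes linear from 0; points are libraries and bars are group means. On the left both lines decline, and on the right the scramble libraries reach 797.3 and 803.5 CPM at 48 h while the shATF4 libraries lie at 365.7 and 376.3 CPM.

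Across the 16 libraries, the listed keratins formed one close set and one looser set by Pearson correlation of log2 CPM. These values are a description, since the libraries share the 6 states. KRT8 with KRT18 gave 0.96, KRT8 with KRT19 0.91 and KRT18 with KRT19 0.90. KRT20 with KRT16 and KRT20 with KRT80 both gave 0.85, KRT23 with KRT80 0.84 and KRT20 with KRT23 0.78. KRT23 ran against KRT18 (-0.82) and KRT8 (-0.80), and KRT10 stayed between -0.47 and 0.20 with every other member.

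For each listed keratin, the protein-coding gene outside the family with the most similar pattern was sought among 12339 genes. Nearest to KRT20 was SLC35D3 (Pearson r = 0.979 over 16 libraries), followed by CDH1, the gene of E-cadherin (0.969), LAPTM5 (0.967), NRP2 (0.965) and AATK (0.96). CDH1 averaged 190, 419 and 375 CPM in scramble cells and 197, 382 and 241 CPM in shATF4 cells. It was picked for its likeness to KRT20 over these same libraries, so its lower level in shATF4 cells at 48 h is no separate result. KRT16 was most like MFSD2A (0.964), TNFSF13 (0.962) and PADI1 (0.96), an enzyme that converts arginine to citrulline in proteins. PADI1 went from 0.973 to 17.3 and 14.1 CPM in scramble cells and from 1.53 to 20.2 and 9.23 CPM in shATF4 cells. KRT23 was most like ABLIM3 (0.986), KRT80 most like DOCK4 (0.957), KRT8 most like ABCF1 (0.988), KRT18 most like CTNNA1, the gene of alpha-catenin (0.987), KRT19 most like CUX1 (0.982) and KRT10 most like SAP30BP (0.896).

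The other parts of the keratin system were read from lists made by function. The lists were chosen with earlier results of these data known. Genes named from each list are up to 4 with the smallest p at 48 h in scramble cells. Their p-values for that comparison are thus those of picked genes and are given as a description. Of 14 tested desmosome and plakin genes, which anchor keratin filaments, 6 rose and 4 fell in scramble cells at 48 h and 6 rose and 5 fell in shATF4 cells, with a median of 0.09 and 0.10. Over all genes 30.6% rose and 30.0% fell in scramble cells at this time, and 29.6% and 28.7% in shATF4 cells, which are the shares for the lists that follow as well. EPPK1, the gene of epiplakin, which binds keratin filaments, rose from 6.68 ± 1.53 to 38.5 ± 4.70 CPM in scramble cells (2.53 ± 0.25, edgeR adjusted p = 1.79e-08), and PKP1 rose by 2.66 ± 0.30 (adjusted p = 1.87e-07). PKP2, the plakophilin of simple epithelia, fell by 0.70 ± 0.07 (edgeR adjusted p = 7.47e-08). JUP, the gene of plakoglobin, rose by 0.91 ± 0.12 (edgeR adjusted p = 9.63e-07).

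Of 12 keratin-binding and filament-organising genes, 4 rose and 4 fell at 48 h in each line, a share near that of all genes (30.6% and 30.0% in scramble cells). SQSTM1, the gene of the p62 protein, rose by 0.60 ± 0.08 and YWHAZ, a 14-3-3 gene, fell by 0.67 ± 0.08 in scramble cells (edgeR adjusted p = 6.8e-07 and 1.88e-07). Of 10 other intermediate filament genes, scramble cells at 48 h had 3 that rose and 2 that fell, beside 30.6% and 30.0% of all genes. In shATF4 cells 5 rose and 2 fell, beside 29.6% and 28.7%. Both lamin B genes fell in scramble cells (LMNB1 -1.42 ± 0.07, LMNB2 -0.68 ± 0.09), and DES, the gene of desmin, went from 0.558 ± 0.131 to 6.38 ± 0.389 CPM. DES too passed the filter only through its 5-FU libraries.

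Of 17 transcription factor genes described at keratin promoters, 13 rose and 1 fell in scramble cells at 48 h, beside 30.6% and 30.0% of all genes, and 11 rose and 3 fell in shATF4 cells, beside 29.6% and 28.7%. FOS and JUNB, parts of the AP-1 factor, rose by 3.13 ± 0.19 and 1.99 ± 0.11 in scramble cells (edgeR adjusted p = 1.87e-11 and 2.76e-12) and by 3.04 ± 0.20 and 1.81 ± 0.11 in shATF4 cells. ELF3, an epithelial ETS factor, rose by 1.06 ± 0.09 in scramble and by 0.61 ± 0.09 in shATF4 cells. The difference of these responses was -0.44 ± 0.13 and did not pass (edgeR adjusted p = 0.0647). Of 18 genes of the cornified envelope and barrier alarm, 5 could be tested, and 2 were called higher at 48 h in scramble and 3 in shATF4 cells (30.6% and 29.6% of all genes). TGM1, a transglutaminase, rose by 1.52 ± 0.25 in scramble cells (edgeR adjusted p = 2.19e-05), while PI3 and SBSN passed the filter only through 5-FU libraries.

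Markers of cells that the culture should lack were read beside these changes. The summed keratinocyte markers went from 2.68 to 5.14 CPM untreated to 8.88 to 10.2 CPM at 48 h in scramble cells, largely KRT5 and FLG, with TP63 at no more than 0.235 CPM and KRT14 at no more than 0.437 CPM in any library. The 4 endothelial and 6 leukocyte markers rose in sum as well, to 12 to 13.8 CPM and 30.1 to 33.5 CPM in scramble cells at 48 h, the latter mostly LYZ (30.6 ± 1.65 CPM), with HBB at 0. The 6 fibroblast markers summed to 35.4 to 44.4 CPM untreated and 53.7 to 55.4 CPM at 48 h in scramble cells, with COL3A1 at 0. The part of these genes in the keratin changes was not tested. Without scramble untreated replicate 2 and shATF4 24 h replicate 3, every listed keratin called in the 4 comparisons with untreated was still called.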

How the data were processed

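RNA of SW620 cells was measured by poly(A)-selected RNA sequencing in 16 libraries, grouped by their titles. The authors deposited whole-number counts per gene without normalization. The submitters' processing notes name featureCounts 1.5.0-p3 and the builds GRCh38 and hg38. The authors also deposited FPKM per gene and a gene length in bp, per the file headers. Not given in the sources used here were the aligner, the annotation release and the treatment of strand. The deposited lengths equal the exon unions of GENCODE v29 for all 8 keratins. Paralogs, pseudogenes and overlapping genes can share reads and are named as uncertain.

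Under R 4.3.3 with edgeR 4.0.16, filterByExpr kept 17309 genes with 99.9% of all counts, and libraries were scaled by TMM. One quasi-likelihood model with the 6 groups as terms was fitted to all 16 libraries (10 residual degrees of freedom, common biological coefficient of variation 0.0847), and 11 contrasts were tested. Adjusted p-values are Benjamini-Hochberg values over the 17309 genes, the calling threshold was 0.05, and standard errors come from the F statistic. The fit was tested on simulated data. A group without counts was set against 3 counts over the group. Intervals and floors cover counting error only, since they come from counts summed over libraries and leave out the scatter between libraries. Reads carry no molecular identifiers, so the intervals may be too narrow even for counting error. Total counts of 14571611 to 17824188 per library limit what can be said of KRT16, KRT20 and other low keratins.

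The members and lists were chosen with earlier results of these data known. The naming rule took all 8 keratins, ATF4 and every other tested keratin. Of each list it took up to 4 genes with the smallest p at 48 h in scramble cells. For each listed keratin it took the 5 genes with the highest Pearson r of log2 CPM, with 0.5 added to each count before scaling. The search covered protein-coding genes that averaged at least 1 CPM. Alternatives were RLE and upper-quartile scaling, DESeq2 1.42.0, no filter, fits of the compared groups only, a replicate block, pseudogene counts added, and left-out libraries. Whether the replicate numbers pair the libraries is not labelled. Deviations from the group mean of same-numbered libraries correlated at 0.017 on average (-0.054 to 0.096 over 36 pairs). Those of differently numbered libraries correlated at -0.009 (-0.096 to 0.092 over 70 pairs).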

Additional observations from a re-analysis of the deposited data

Results flagged for a closer look

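For 8 keratins the response to 48 h of 5-FU differed between the lines by the interaction contrast itself, with shATF4 minus scramble below 0 in each. Of the listed keratins these were KRT20 (-2.54 on the log2 scale), KRT80 (-1.09) and KRT19 (-0.40). Of the others they were KRT81 (-2.21), KRT5 (-1.64), KRT86 (-1.36), KRT7 (-1.24) and KRT40 (-0.72). In 5 of the 8 the scramble line rose over untreated at 48 h while the shATF4 line had a smaller change in the same direction (KRT20, KRT80, KRT5, KRT81 and KRT86). KRT7 rose in scramble and fell in shATF4 cells, and KRT19 and KRT40 fell in both lines, further in shATF4. The list of the first 3 genes was drawn up with these counts known, so their differences are descriptions.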

How the results depend on the processing

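For the 8 listed keratins, 2111 values of 88 results were recomputed under 24 settings. Of these, 25 lost a call, 35 gained one, 18 that were not called moved by more than their standard error and stayed not called, and the other 2033 also stayed on their side of the threshold. Among values not called 32 changed sign, and 0 called values did; 41 of 48 calls held in every setting. Counts of calls moved by over 1.5 times in 3 contrasts. Between the lines at 24 h, leaving out 1 library each gave 2 to 5 listed keratins (4 in full) and 3 to 8 of the family (7 in full), lowest without any 1 of the scramble 24 h libraries. For the interaction at 24 h, 0 listed keratins and 0 of the family became 1 and 1 without a filter, 1 and 1 with the replicate block, 1 and 1 without both libraries described as standing apart, and 0 to 2 with 1 library left out. For the interaction at 48 h, the family count of 8 ran from 5 to 9 with 1 library left out. No other count moved that far under the replicate block, and of 16 libraries 6 correlated best with their own number. Upper-quartile scaling moved the share of higher calls over all genes from 49.5 to 60.1% at 24 h and from 50.5 to 61.4% at 48 h in scramble cells, from 50.7 to 61.2% at 48 h in shATF4 cells, from 49.1 to 60.2% for 48 h against 24 h in scramble cells, and from 44.4 to 30.7% for the interaction at 24 h. Where a group of 2 lost a library, the remaining one was assumed to vary like the other groups. With 0 to 4 counts per untreated library, depth limits the precision of KRT16.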
